A study of Homo sapiens with 16 samples.

Results

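The genes described here are 32 protein-coding genes of glycolysis, of lactate and pyruvate handling and of the pentose phosphate pathway. They were picked by name from the 58735 genes of the deposited count table. Earlier results of these data were known at that point, so comparisons of the 32 with all genes may not be free of selection. All 32 passed the filter on low counts, as did 17309 genes in all. They were measured by RNA sequencing in SW620 cells, an established human colorectal cancer line, that carried a short hairpin RNA either against the transcription factor ATF4 (shATF4) or with a scrambled sequence (scramble). The shATF4 cells had 3 untreated libraries, 3 after 24 h in 5 µM 5-fluorouracil (5-FU) and 2 after 48 h in the same dose, and the scramble cells had the same numbers. The question of the study is the role of ATF4 when colorectal cancer cells resist chemotherapy. Each treated or untreated state therefore exists in a knockdown line and in a control line that carries a hairpin too. The labels name 1 knockdown line and 1 scramble line and do not say whether either was a clone, so hairpin and line cannot be told apart. The 4 libraries titled as 48 h carry a treatment tag that reads 24 h, and they were placed at 48 h because the titles and the design text say so. The untreated libraries have no stated time, so 5-FU and time in culture cannot be told apart. The labels do not say whether replicates came from separate cultures. The p-values therefore measure the spread between these libraries, and that spread may be technical.

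Glycolysis starts with glucose uptake through SLC2A transporters and its phosphorylation by hexokinase, commits the sugar at phosphofructokinase, and yields ATP and pyruvate in the payoff steps that begin at GAPDH. Lactate dehydrogenase then turns pyruvate into lactate, which leaves the cell through SLC16A transporters. Pyruvate dehydrogenase kinases restrain pyruvate dehydrogenase, which uses pyruvate inside the mitochondria. The pentose phosphate pathway branches off at glucose 6-phosphate and supplies NADPH and ribose for nucleotides, and tumour cells are known for heavy use of all these routes. ATF4 is a transcription factor that acts when cells sense stress such as amino acid shortage. 5-FU is a uracil analogue used against this cancer, which starves cells of thymidine and enters their nucleic acids.

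Many glycolytic promoters are known for the core letters of the hypoxia response element, and the upstream windows of HK2, LDHA, PGK1 and ENO2 are shown because these genes carry the main results on trapping of glucose, lactate formation and the payoff steps. Each line gives the 250 bases before a RefSeq start of the gene on GRCh38.p14, read 5′ to 3′ along the gene. ACGTG or GCGTG on either strand is in capitals. The windows are chr2:74833877-74834126, + strand for HK2, chr11:18394313-18394562, + strand for LDHA, chrX:78103998-78104247, + strand for PGK1 and chr12:6914330-6914579, + strand for ENO2.
HK2: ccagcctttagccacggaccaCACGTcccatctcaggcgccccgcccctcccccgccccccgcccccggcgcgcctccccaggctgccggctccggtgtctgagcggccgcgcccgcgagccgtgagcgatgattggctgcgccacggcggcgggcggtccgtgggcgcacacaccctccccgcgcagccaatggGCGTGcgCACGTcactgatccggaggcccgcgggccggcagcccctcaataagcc
LDHA: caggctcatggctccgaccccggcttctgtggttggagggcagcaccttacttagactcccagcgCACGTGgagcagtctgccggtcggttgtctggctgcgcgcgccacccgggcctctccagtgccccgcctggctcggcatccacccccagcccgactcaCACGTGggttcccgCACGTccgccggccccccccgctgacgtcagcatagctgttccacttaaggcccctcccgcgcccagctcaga
PGK1: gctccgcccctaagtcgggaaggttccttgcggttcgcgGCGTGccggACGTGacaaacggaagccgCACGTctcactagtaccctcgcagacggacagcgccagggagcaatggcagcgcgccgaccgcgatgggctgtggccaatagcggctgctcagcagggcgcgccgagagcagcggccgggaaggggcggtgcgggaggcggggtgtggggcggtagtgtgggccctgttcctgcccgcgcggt
ENO2: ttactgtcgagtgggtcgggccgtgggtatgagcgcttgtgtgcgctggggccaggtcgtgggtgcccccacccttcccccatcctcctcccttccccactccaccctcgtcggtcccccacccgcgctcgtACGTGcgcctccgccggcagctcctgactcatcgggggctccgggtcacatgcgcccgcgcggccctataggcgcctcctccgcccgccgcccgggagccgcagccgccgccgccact
These windows hold 3, 5, 3 and 1 matches in HK2, LDHA, PGK1 and ENO2, where overlapping matches of CACGTG count on both strands. RefSeq promoters of 300 bases, from 250 before to 50 after the start, were found for 30 of the 32 genes, all but SLC2A3 and SLC16A1. Each of these genes had 1 window, which can lie away from the first annotated start. The GAPDH window began at 6535014 on chromosome 12, where the annotated start of the gene is 6533927. Of the printed windows, those of PGK1 and ENO2 lie past the annotated gene starts, 77910739 and 6913745. Those of HK2 and LDHA span the annotated starts, 74833981 and 18394388. ACGTG or GCGTG was present on either strand in 18 of these 30 (60%), against 48.4% of all 35116 promoter windows of that length. ACGTG alone was in 10 of the 30 (33.3%) against 21.4% of all windows, and GCGTG alone in 14 (46.7%) against 36.5%. CACGTG, which contains ACGTG on both strands, was in 3 (10%) against 7.26%, and TGATGNAA, a form of the letters that ATF4 binds with CEBP partners, in HK1 alone, or 3.33% against 3.62%. These counts describe letters in the windows and not binding.

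Total counts ran from 14571611 to 17824188 per library. Levels are CPM, a gene's counts relative to the library size scaled by TMM. The cell-type markers are the exception, as their CPM are relative to total counts without TMM. Marker CPM are therefore not on the scale of the other CPM. Differences were tested with edgeR's quasi-likelihood test, and a gene is named as called where its p, after Benjamini-Hochberg adjustment over the 17309 genes tested, was under 0.05. All adjusted p-values come from that test, and the value after ± beside a log2 change is its SE. ATF4, the target of the hairpin, had 172, 169 and 179 CPM untreated, 91.1, 109 and 130.4 at 24 h and 114 and 118 at 48 h in shATF4 cells. ATF4 in scramble cells was at 388, 364 and 384 CPM untreated, 270.1, 285 and 280.1 at 24 h and 331 and 333 at 48 h. The groups did not overlap at any of the 3 states, and shATF4 libraries were 2.19-fold, 2.53-fold and 2.86-fold lower untreated, at 24 h and at 48 h (adjusted p = 6.42e-08, 2.7e-09 and 1.62e-08). Of 9 colon epithelial markers, KRT8, KRT18, KRT19, EPCAM, CDH1 and VIL1 were at 167 CPM or more in every library, CDX2 was at 9.88 to 40.5 CPM, and CDX1 and LGALS4 did not exceed 0.134 and 0.981 CPM in any library. Their summed level was 7460 to 7930 CPM at 48 h in shATF4 cells and 8360 to 8550 CPM at 48 h in scramble cells, against 10200 to 10800 and 9850 to 11100 CPM untreated. In each line 1 library was picked as the one that stood apart from its groupmates, by a different measure in each line. Mitochondrially encoded genes took 1.42% of counts in scramble untreated replicate 2, against 0.753% and 0.766% in its groupmates. The RN7SL RNA took 0.0726% in shATF4 24 h replicate 3, against 0.0241% and 0.0251%. Scramble untreated replicate 1 also had more RN7SL than its groupmates, 0.0167% against 0.00438% and 0.00365%, and was not picked. The root mean square deviation from groupmates was 0.421 in scramble untreated replicate 3, against 0.416 in replicate 2. The pick in scramble cells thus rests on the mitochondrial share alone.

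In the untreated cells the payoff enzymes led the levels per length, which are the authors' deposited FPKM. GAPDH, which oxidises glyceraldehyde 3-phosphate, had 1031 ± 17.8 FPKM in shATF4 cells and 1128 ± 14 FPKM in scramble cells (SD, n = 3 each). The enolase ENO1 came next with 569 ± 13.9 and 658 ± 6.85 FPKM in shATF4 and scramble cells, followed by TPI1, the pyruvate kinase PKM and LDHA. At the other end stood the kinase PDK1 with 1.32 ± 0.0186 FPKM in shATF4 cells and 1.6 ± 0.185 FPKM in scramble cells, and the aldolase rows. The 32 genes together took 1.576% to 1.598% of counts in untreated shATF4 libraries, 1.607% to 1.689% at 24 h and 1.261% to 1.308% at 48 h. In scramble libraries they took 1.67% to 1.713%, 1.566% to 1.592% and 1.25% to 1.257% at the same states. The share was therefore lowest at 48 h in both lines, with no overlap with the earlier states.

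After 48 h in 5-FU most of the pathway was lower in both lines, while 4 genes were higher in both: the glucose transporter SLC2A3, the hexokinase HK1, the enolase ENO2 and the regulator PFKFB4. In shATF4 cells 26 of the 32 genes were called, 7 higher and 19 lower, where 58.3% of all genes tested were called, 29.6% higher and 28.7% lower. In scramble cells 28 were called, 5 higher and 23 lower, where 60.7% of all genes were called, 30.6% higher and 30% lower. The median log2 change of the 32 genes was -0.41 in shATF4 cells and -0.68 in scramble cells, against 0.031 and 0.027 over all genes tested in the same comparisons. The genes called lower were a larger share of the 32 than of all genes in both lines, and the genes called higher a smaller one. The 18 genes lower in both lines were GPI, HK2, TPI1, GAPDH, PGK1, PGAM1, ENO1, PKM, LDHA, LDHB, SLC16A3, PDK1 and all 6 pentose phosphate genes. Upper-quartile scaling moved the median of all genes by 0.126 in shATF4 cells and 0.145 in scramble cells, and gave 8 higher and 17 lower in shATF4 cells and 5 higher and 19 lower in scramble cells. At 48 h, 21 of the 26 calls in shATF4 cells and 23 of the 28 in scramble cells held in every setting tried.

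At 24 h the calls were fewer and more mixed in direction. In shATF4 cells 19 genes were called, 10 higher and 9 lower, where 44.4% of all genes were called, 23.2% higher and 21.2% lower. In scramble cells 22 were called, 7 higher and 15 lower, where 44% of all genes were called, 21.8% higher and 22.2% lower. The share called was above that of all genes in both lines, and the excess of lower calls was larger in scramble cells. The median log2 change of the 32 genes was 0.0044 in shATF4 cells and -0.20 in scramble cells, against 0.030 and -0.011 over all genes. HK1, SLC2A3, PFKFB4, PFKP, PGM1 and PDK3 were called higher in both lines at 24 h. HK2, LDHA, PDK1, PGD, PGLS, RPIA and TKT were called lower, and HK1, PFKFB4 and SLC2A3 higher, at both times in both lines against untreated cells. These libraries are bulk samples, in which fewer cells of a type and less RNA per cell cannot be told apart.

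**Figure D1:**
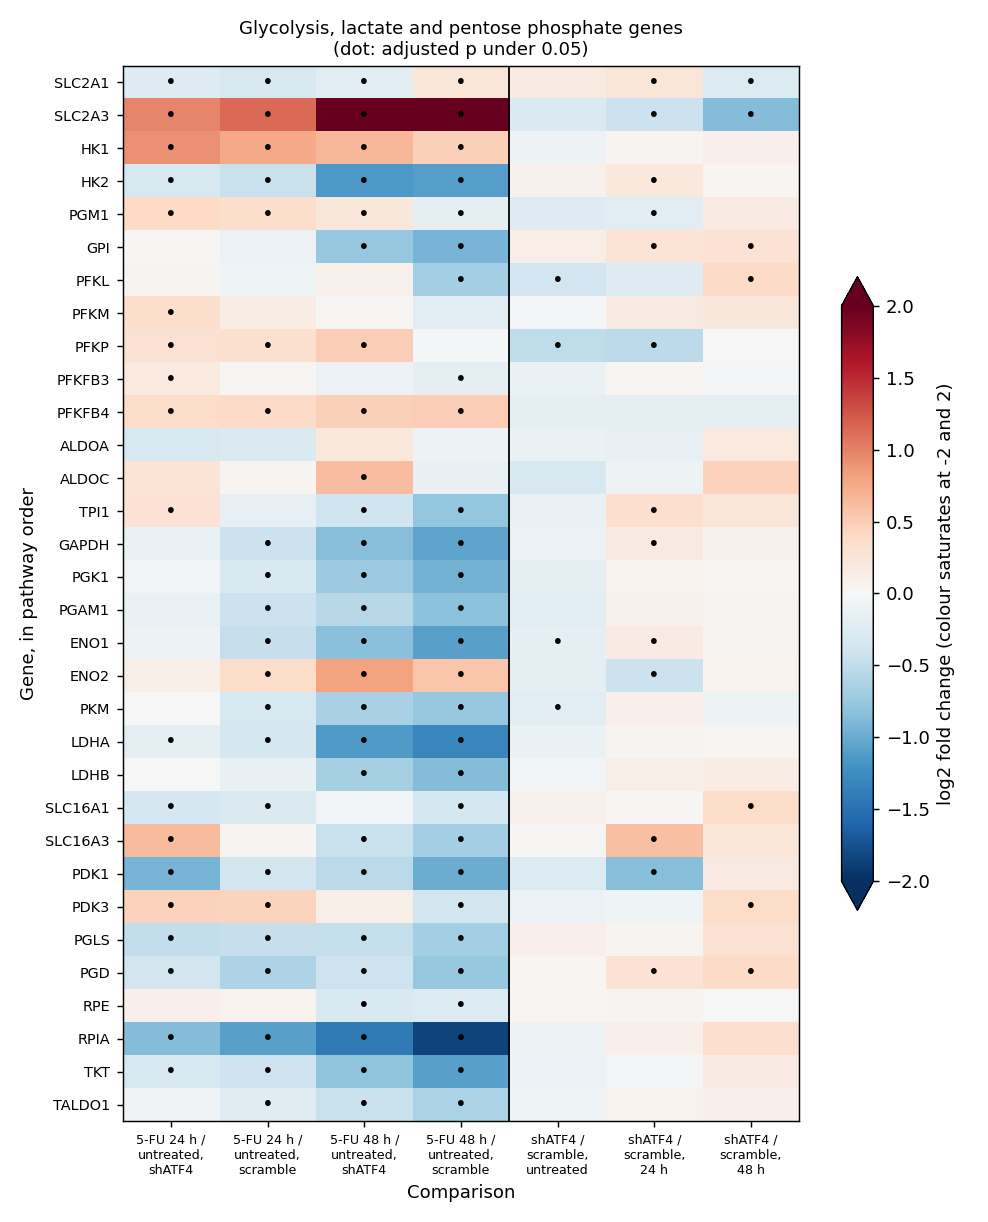
Log2 fold changes of the 32 genes (rows, in pathway order) for 5-FU against untreated in each line (left) and for shATF4 against scramble at each state (right); red is higher, blue lower, and a dot marks an adjusted p under 0.05. The 48 h columns are mostly blue, with SLC2A3 beyond the colour range at 2.60 in shATF4 cells and 3.18 in scramble cells.

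Markers of other cell types moved with 5-FU as well. Their CPM too are relative to total counts without TMM. The TMM factors left out were 0.8887 to 0.922 untreated and 1.14 to 1.149 at 48 h, so the sizes of these moves are approximate. The summed level of the leukocyte markers was 27.2 to 27.3 CPM in shATF4 cells at 48 h and 34.2 to 37.7 CPM in scramble cells at 48 h, against 3.63 to 4.78 CPM and 2.95 to 3.81 CPM in the untreated cells of the same lines. LYZ alone reached 36.3 CPM, while PTPRC was at 0 in 13 of the 16 libraries and CD3E in 11. The summed level of 6 fibroblast markers was 64.4 to 73.3 CPM in shATF4 cells at 48 h and 61.5 to 63.3 CPM in scramble cells at 48 h, against 33.2 to 34.9 CPM and 31.8 to 39.4 CPM untreated, with LUM at 19.9 to 48.7 CPM, COL1A1 at 6.61 to 22.4 CPM and PDGFRB at 0.811 to 10.1 CPM over the 16 libraries. COL3A1 was at 0 in all 16 libraries, DCN in 15 and COL1A2 in 14. The sum of 3 endothelial markers was 7.74 to 8.9 CPM in shATF4 cells and 13.8 to 15.7 CPM in scramble cells at 48 h, against 3.38 to 4.68 CPM and 3.27 to 3.74 CPM untreated. The sum of 3 red cell markers did not exceed 1.64 CPM. The part of these markers in the 5-FU results was not tested.

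Between shATF4 and scramble cells the 32 genes were compared at each state. In untreated cells 4 genes were called, none higher and 4 lower, where 2.92% of all genes were called, 1.08% higher and 1.84% lower. These were the phosphofructokinases PFKP and PFKL and the payoff enzymes PKM and ENO1. At 24 h 13 genes were called, 8 higher and 5 lower, where 20.4% of all genes were called, 10.5% higher and 9.89% lower. SLC16A3, TPI1, PGD, GPI, SLC2A1, HK2, GAPDH and ENO1 were higher, and PDK1, PFKP, ENO2, SLC2A3 and PGM1 lower. At 48 h 7 were called, 5 higher and 2 lower, where 9.45% of all genes were called, 3.92% higher and 5.53% lower. PFKL, PGD, SLC16A1, PDK3 and GPI were higher, and SLC2A3 and SLC2A1 lower. At each state the share called was above that of all genes. The 32 genes were not matched to all genes by level, here or for the other shares given. Genes with many counts can be called at smaller differences. The median log2 difference of the 32 genes was -0.12 in untreated cells, 0.059 at 24 h and 0.12 at 48 h, against -0.011, 0.013 and 0.0019 over all genes tested. The estimate was below 0 for 24 of the 32 genes in untreated cells and above 0 for 27 of them at 48 h, a description with no test over the list.

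Most knockdown calls were lost when 1 library was left out. PFKP in untreated cells, PFKP, PDK1, ENO2, SLC2A3 and SLC16A3 at 24 h, and SLC2A3 at 48 h held in every setting tried. In untreated cells 1 gene was called without shATF4 untreated replicate 1 or 2 or without scramble untreated replicate 1, 2 were called without shATF4 untreated replicate 3, and 8 without shATF4 24 h replicate 3. At 24 h 8 genes were called without scramble 24 h replicate 1 and 7 without scramble 24 h replicate 3. At 48 h 3 genes were called without shATF4 48 h replicate 1, 2 without shATF4 48 h replicate 2, and 1 without either scramble 48 h replicate.

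The response to 5-FU was compared between the lines with an interaction term, whose log2 value is the change in shATF4 cells minus the change in scramble cells. At 24 h 3 of the 32 genes were called, 3 with a higher value in shATF4 cells and none with a lower one, where 2.13% of all genes tested were called, 0.947% higher and 1.18% lower. They were ENO1, PKM and SLC16A3. At 48 h 5 were called, 3 higher and 2 lower, where 2.74% of all genes were called, 1.3% higher and 1.44% lower. PFKL, PFKP and PGM1 had the higher value, and the glucose transporters SLC2A1 and SLC2A3 the lower one. The median interaction value was 0.15 at 24 h and 0.24 at 48 h, against 0.024 and 0.012 over all genes. The estimate was above 0 for 24 and 27 of the 32 genes. The call of PFKL held in every setting tried, and those of the other 7 did not, as given with each gene. The count at 24 h was 8 without shATF4 24 h replicate 1, 6 without shATF4 24 h replicate 3, 1 without shATF4 24 h replicate 2 or scramble untreated replicate 1, and 0 without shATF4 untreated replicate 1 or 2 or without scramble 24 h replicate 1 or 3. The count at 48 h was 11 without shATF4 24 h replicate 3, 3 without shATF4 untreated replicate 1 or 2 or scramble untreated replicate 2, 2 without shATF4 48 h replicate 1 or scramble 48 h replicate 2, and 1 without shATF4 48 h replicate 2 or scramble 48 h replicate 1.

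**Figure D2:**
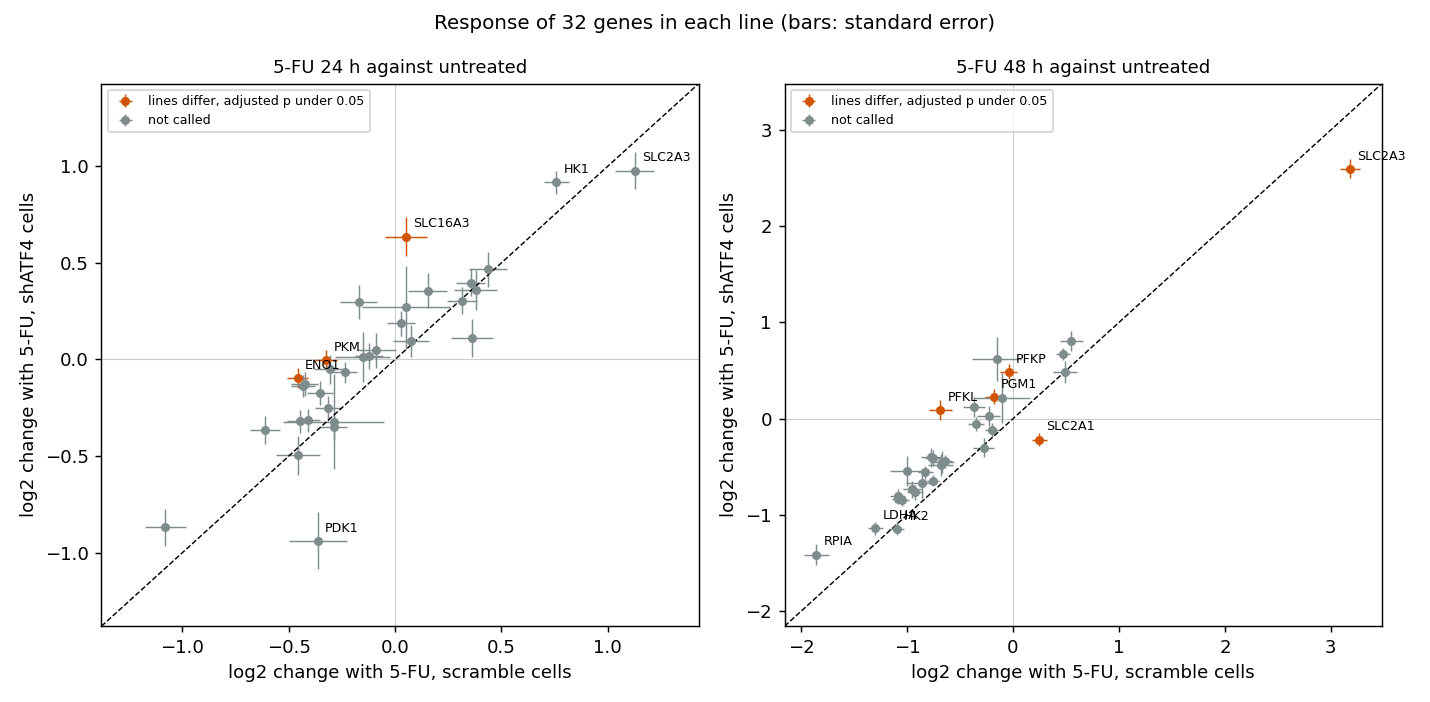
Log2 change under 5-FU in shATF4 cells (vertical) against the change in scramble cells (horizontal), at 24 h (left) and 48 h (right), with 1 point per gene and SE bars; the dashed line marks equal change and orange marks a called interaction. At 48 h PFKL, PFKP and PGM1 lie above the line, at 0.77, 0.53 and 0.41, and SLC2A1 and SLC2A3 below it, at -0.46 and -0.58.

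SLC2A3, the high-affinity glucose transporter GLUT3, changed most of the 32 genes under 5-FU. It had 23.6, 23.3 and 22.5 CPM untreated, 42.3, 48 and 46.6 at 24 h and 142 and 139 at 48 h in shATF4 cells. SLC2A3 in scramble cells was at 34, 26.3 and 24.4 CPM untreated, 61.2, 62 and 61.4 at 24 h and 255 and 256 at 48 h. Every library at 24 h was above every untreated one of its line, and every library at 48 h was above every one at 24 h. The level at 48 h was 6.05-fold the untreated one in shATF4 cells, a log2 change of 2.60 ± 0.10 (adjusted p = 2.67e-14), and 9.07-fold in scramble cells, 3.18 ± 0.10 (adjusted p = 5.26e-16). At 24 h the changes were 0.98 ± 0.094 (adjusted p = 5.47e-08) in shATF4 cells and 1.13 ± 0.091 (adjusted p = 4.51e-09) in scramble cells. The knockdown cells thus reached a lower level at 24 h and 48 h. Their log2 difference from scramble cells was -0.28 ± 0.10 (adjusted p = 0.15) untreated, -0.43 ± 0.088 (adjusted p = 0.00185) at 24 h and -0.86 ± 0.10 (adjusted p = 1.17e-05) at 48 h, and the groups did not overlap at any state. The interaction at 48 h was -0.58 ± 0.14 (adjusted p = 0.0263), and it missed the threshold without shATF4 untreated replicate 1 or 2, either shATF4 48 h library, scramble untreated replicate 2 or 3 or either scramble 48 h library (adjusted p from 0.0515 to 0.106).

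SLC2A1, the basal glucose transporter GLUT1, had the higher level per length of this pair and changed in opposite directions in the lines at 48 h. It had 869, 898 and 896 CPM untreated, 749, 803 and 683 at 24 h and 747 and 782 at 48 h in shATF4 cells. SLC2A1 in scramble cells was at 807, 811 and 721 CPM untreated, 627, 639 and 614 at 24 h and 914 and 938 at 48 h. At 48 h both shATF4 libraries were below all untreated shATF4 libraries, and both scramble libraries were above all untreated scramble libraries. The log2 change at 48 h was -0.22 ± 0.071 (adjusted p = 0.0134) in shATF4 cells and 0.25 ± 0.070 (adjusted p = 0.00454) in scramble cells. The first call was lost without shATF4 48 h replicate 1 (adjusted p = 0.0927) and under upper-quartile scaling (adjusted p = 0.304), and the second without scramble 48 h replicate 2 (adjusted p = 0.0622). At 24 h SLC2A1 was lower in both lines, with -0.25 ± 0.064 (adjusted p = 0.0028) in shATF4 cells and -0.31 ± 0.064 (adjusted p = 0.000416) in scramble cells. The interaction at 48 h was -0.46 ± 0.10 (adjusted p = 0.0146) and was lost without either shATF4 48 h library or either scramble 48 h library (adjusted p from 0.0504 to 0.0954). Against scramble, shATF4 cells were at 0.25 ± 0.064 (adjusted p = 0.00894) at 24 h and at -0.28 ± 0.078 (adjusted p = 0.0267) at 48 h. These calls were lost, at 24 h without shATF4 24 h replicate 2 or scramble 24 h replicate 3 (adjusted p from 0.0599 to 0.0618) and with the groups compared alone in the fit (adjusted p = 0.0547), and at 48 h without either shATF4 48 h library or either scramble 48 h library (adjusted p from 0.0934 to 0.199). Per length, SLC2A3 made up 1.89% to 2.04% of the summed FPKM of the pair in untreated shATF4 libraries, 4.15% to 4.97% at 24 h and 12% to 12.7% at 48 h. In scramble libraries it made up 2.42% to 3.13%, 6.92% to 7.12% and 17.3% to 17.6% at the same states.

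The hexokinases, which trap glucose as glucose 6-phosphate, moved in opposite directions and exchanged rank under 5-FU. HK2, the inducible form common in tumours, had 222, 226 and 228 CPM untreated, 187, 175 and 179 at 24 h and 104 and 101 at 48 h in shATF4 cells. HK2 in scramble cells was at 208, 225 and 202 CPM untreated, 154, 156 and 157 at 24 h and 101 and 97.2 at 48 h. HK2 was lower at each later state in both lines, with no overlap between states. At 48 h it was 2.21-fold lower in shATF4 cells, -1.14 ± 0.069 (adjusted p = 2.16e-11) on the log2 scale, and 2.14-fold lower in scramble cells, -1.10 ± 0.069 (adjusted p = 2.69e-11). HK1, the form found in most tissues, had 135, 142 and 140.0 CPM untreated, 261, 259 and 266 at 24 h and 219.6 and 223 at 48 h in shATF4 cells. HK1 in scramble cells was at 151, 148 and 149 CPM untreated, 250.1, 262 and 246 at 24 h and 215 and 199 at 48 h. All 5-FU libraries of HK1 were above all untreated ones, and in both lines its 24 h libraries were above its 48 h libraries. The log2 change of HK1 was 0.92 ± 0.058 (adjusted p = 1.41e-10) at 24 h and 0.67 ± 0.063 (adjusted p = 1.47e-08) at 48 h in shATF4 cells, and 0.76 ± 0.058 (adjusted p = 1.73e-09) at 24 h and 0.47 ± 0.064 (adjusted p = 1.81e-06) at 48 h in scramble cells.

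Per length, HK2 made up 62.3% to 63.1% of the summed HK1 and HK2 FPKM in untreated shATF4 libraries, 41.2% to 42.7% at 24 h and 31.9% to 32.9% at 48 h. In scramble libraries the share was 58.5% to 61.2%, 38.1% to 39.9% and 32.8% to 33.6%. HK2 was thus the larger part in every untreated library and the smaller part in every 5-FU library. The response of neither gene was called different between the lines, with an interaction at 48 h of 0.20 ± 0.091 (adjusted p = 0.284) for HK1 and -0.043 ± 0.095 (adjusted p = 0.886) for HK2. HK2 was called higher in shATF4 than scramble cells at 24 h, 0.22 ± 0.059 (adjusted p = 0.0146), a call lost without shATF4 24 h replicate 1 or any single scramble 24 h library (adjusted p from 0.0584 to 0.0802) and in 2 other settings (adjusted p from 0.0555 to 0.069).

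**Figure D3:**
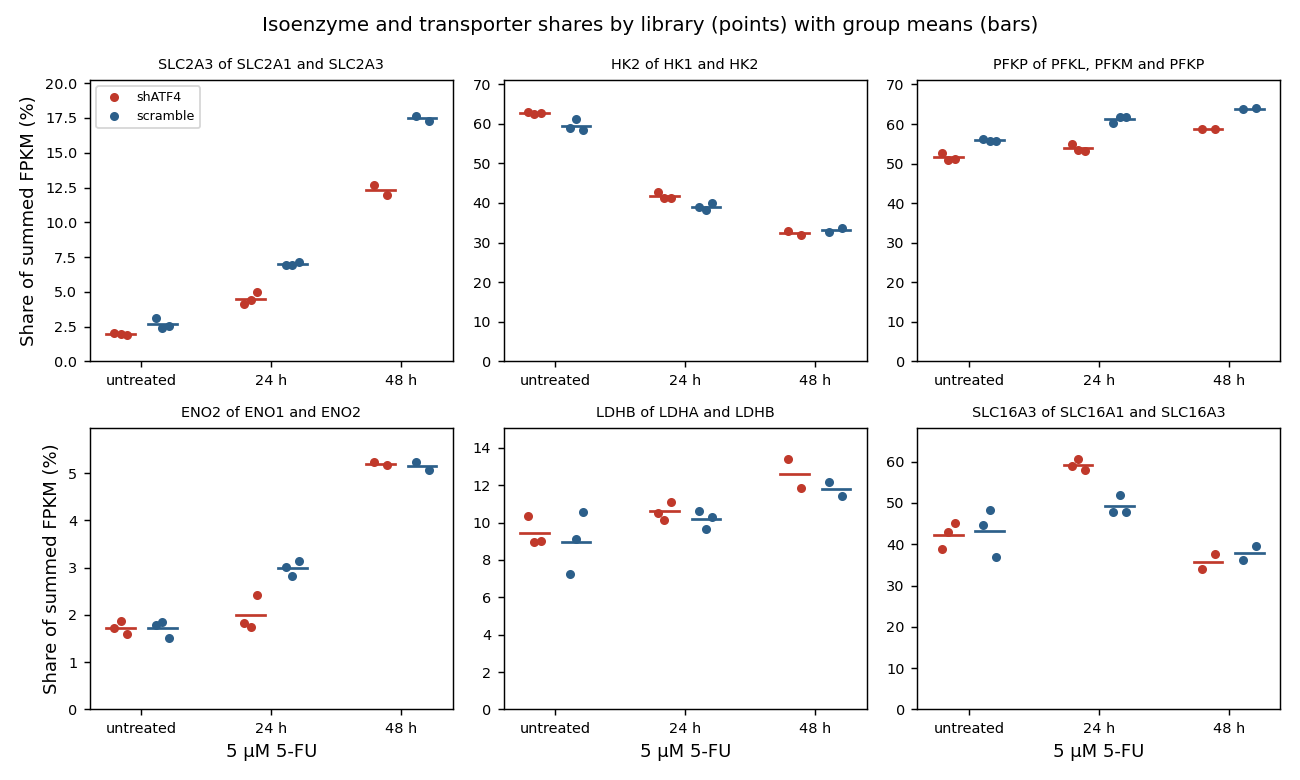
Share of each isoenzyme or transporter in the summed FPKM of its set (vertical, percent), by library (points) with group means (bars), over the untreated state, 24 h and 48 h; shATF4 is in red and scramble in blue. The HK2 share is 32.4% at 48 h in shATF4 cells, against 62.7% untreated, and the SLC2A3 and ENO2 shares are highest at 48 h.

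GPI and PGM1 link glucose 6-phosphate to fructose 6-phosphate and to glycogen. GPI, the isomerase, had 673, 679.9 and 693 CPM untreated, 723, 736 and 612 at 24 h and 380.3 and 422 at 48 h in shATF4 cells. GPI in scramble cells was at 621, 644 and 608 CPM untreated, 573, 595 and 552 at 24 h and 330.2 and 328 at 48 h. All its 48 h libraries were below its other libraries, and it fell at 48 h in both lines, with -0.77 ± 0.077 (adjusted p = 3.69e-08) in shATF4 cells and -0.92 ± 0.078 (adjusted p = 2.1e-09) in scramble cells, and was not called at 24 h in either. Against scramble cells, shATF4 cells were higher at both times, 0.27 ± 0.067 (adjusted p = 0.0084) after 24 h of 5-FU and 0.29 ± 0.083 (adjusted p = 0.0327) after 48 h. These calls were lost, at 24 h without shATF4 24 h replicate 2 or scramble 24 h replicate 3 (adjusted p from 0.0503 to 0.069) and with the groups compared alone in the fit (adjusted p = 0.0597), and at 48 h without shATF4 48 h replicate 2 or either scramble 48 h library (adjusted p from 0.162 to 0.275).

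PGM1, the glycogen-side phosphoglucomutase, had 44.3, 46.8 and 45.2 CPM untreated, 60.6, 59 and 60 at 24 h and 50.8 and 55.8 at 48 h in shATF4 cells. PGM1 in scramble cells was at 54.4, 56.4 and 51.5 CPM untreated, 68.7, 69.3 and 69.7 at 24 h and 48.8 and 46.6 at 48 h. All 24 h libraries of PGM1 were above all untreated ones in both lines, and the log2 change at 24 h was 0.40 ± 0.068 (adjusted p = 7.79e-05) in shATF4 cells and 0.36 ± 0.067 (adjusted p = 0.000212) in scramble cells. At 48 h the changes had opposite signs, 0.23 ± 0.076 (adjusted p = 0.013) in shATF4 cells and -0.18 ± 0.076 (adjusted p = 0.0436) in scramble cells. These calls were lost, in shATF4 cells without shATF4 48 h replicate 2 (adjusted p = 0.213) and with no filter on low counts (adjusted p = 0.136), and in scramble cells without shATF4 untreated replicate 2 or 3, shATF4 24 h replicate 2, scramble untreated replicate 1 or 2 or either scramble 48 h library (adjusted p from 0.0514 to 0.195) and in 6 other settings (adjusted p from 0.0822 to 0.696). Without shATF4 48 h replicate 2 the change in shATF4 cells was 0.15 (adjusted p = 0.213). The PGM1 difference of shATF4 from scramble was -0.21 ± 0.067 (adjusted p = 0.0305) at 24 h, a call lost without shATF4 24 h replicate 2 or any single scramble 24 h library (adjusted p from 0.0523 to 0.0887) and in 2 other settings (adjusted p from 0.0635 to 0.124). The interaction of PGM1 at 48 h was 0.41 ± 0.11 (adjusted p = 0.0413) and was lost without any single shATF4 untreated library, shATF4 24 h replicate 2, either shATF4 48 h library, scramble untreated replicate 1 or 2, any single scramble 24 h library or either scramble 48 h library (adjusted p from 0.0503 to 0.21) and in 3 other settings (adjusted p from 0.0597 to 0.144).

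At phosphofructokinase, the committed step, PFKP and PFKL had the largest called differences between the lines in untreated cells. PFKP, the platelet-type subunit and the most abundant of the 3 per length, had 143, 144 and 144 CPM untreated, 183, 176 and 173 at 24 h and 197 and 206 at 48 h in shATF4 cells. PFKP in scramble cells was at 211, 221 and 183 CPM untreated, 242, 273 and 248 at 24 h and 194 and 204 at 48 h. The shATF4 libraries were below all scramble libraries untreated and at 24 h, and overlapped them at 48 h. The log2 difference of shATF4 from scramble was -0.51 ± 0.071 (adjusted p = 0.000138) untreated, -0.52 ± 0.070 (adjusted p = 3.5e-05) at 24 h and 0.015 ± 0.085 (adjusted p = 0.946) at 48 h. Under 5-FU, PFKP was higher at 24 h in both lines, 0.30 ± 0.071 (adjusted p = 0.00143) in shATF4 cells and 0.31 ± 0.070 (adjusted p = 0.00101) in scramble cells. After 48 h PFKP was higher in shATF4 cells, 0.49 ± 0.078 (adjusted p = 1.7e-05), with a change of -0.041 ± 0.078 (adjusted p = 0.676) in scramble cells. The interaction at 48 h was 0.53 ± 0.11 (adjusted p = 0.0117) and was lost without shATF4 48 h replicate 2 or scramble 48 h replicate 1 (adjusted p from 0.0643 to 0.0811).

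PFKL, the liver-type subunit, had 145, 155 and 161 CPM untreated, 169.6, 171 and 136 at 24 h and 157 and 170.1 at 48 h in shATF4 cells. PFKL in scramble cells was at 205, 223 and 175 CPM untreated, 189.5, 199 and 179 at 24 h and 121 and 129 at 48 h. The shATF4 libraries were below all scramble libraries untreated and at 24 h, and above both of them at 48 h. The log2 difference was -0.39 ± 0.091 (adjusted p = 0.0195) untreated, -0.25 ± 0.091 (adjusted p = 0.0544) at 24 h and 0.38 ± 0.11 (adjusted p = 0.0327) at 48 h. The untreated call was lost without shATF4 untreated replicate 1 or 2 or scramble untreated replicate 1 or 2 (adjusted p from 0.0769 to 0.11), and the 48 h call without either shATF4 48 h library or either scramble 48 h library (adjusted p from 0.0674 to 0.228). Scramble cells had lower PFKL at 48 h than untreated, -0.68 ± 0.10 (adjusted p = 8.31e-06), and shATF4 cells had a change of 0.088 ± 0.10 (adjusted p = 0.475). The interaction at 48 h was 0.77 ± 0.14 (adjusted p = 0.00499), and it was called in every setting tried. PFKM, the muscle-type subunit, averaged 77.8 ± 4.59, 99.5 ± 17.8 and 79.2 ± 0.566 CPM in shATF4 cells over the 3 states, against 79.5 ± 3.22, 88.4 ± 4.31 and 67.8 ± 1.1 CPM in scramble cells (SD, n = 3, 3 and 2 in each line). It was called only in shATF4 cells at 24 h among the 5-FU comparisons with untreated cells, 0.36 ± 0.093 (adjusted p = 0.00364), where replicate 3 had 119.9 CPM. Without that library, the one with the high RN7SL share, the change was 0.20 (adjusted p = 0.0263). The interaction of PFKM at 24 h was not called. The PFKP share of the 3 subunits per length was 50.9% to 52.7% untreated, 53.1% to 55% at 24 h and 58.8% to 58.9% at 48 h in shATF4 cells. In scramble cells it was 55.7% to 56.2%, 60.3% to 61.7% and 63.7% to 64.1%, above every shATF4 library of the same state.

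PFKFB3 and PFKFB4 make and break fructose 2,6-bisphosphate, the activator of phosphofructokinase. PFKFB4 had 13.6, 15.3 and 13.9 CPM untreated, 17.5, 16.9 and 20.4 at 24 h and 18.9 and 20.9 at 48 h in shATF4 cells. PFKFB4 in scramble cells was at 16.3, 17.6 and 14.6 CPM untreated, 21.2, 20.3 and 21.6 at 24 h and 22.7 and 22.8 at 48 h. Its 5-FU libraries were above all untreated ones of their line, and the log2 change at 48 h was 0.48 ± 0.11 (adjusted p = 0.001) in shATF4 cells and 0.49 ± 0.11 (adjusted p = 0.000705) in scramble cells. PFKFB3 stayed between 49.9 and 65.6 CPM in all 16 libraries. It was called at 24 h in shATF4 cells, 0.19 ± 0.065 (adjusted p = 0.0225), and at 48 h in scramble cells, -0.19 ± 0.072 (adjusted p = 0.026). These calls were lost, in shATF4 cells without shATF4 untreated replicate 1 or 2 or shATF4 24 h replicate 2 (adjusted p from 0.0558 to 0.0706) and in 2 other settings (adjusted p from 0.0699 to 0.19), and in scramble cells without scramble untreated replicate 1 or either scramble 48 h library (adjusted p from 0.0517 to 0.134) and in 5 other settings (adjusted p from 0.0508 to 0.588). Neither gene was called between the lines at any state, and neither had a called interaction.

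The aldolase rows of the table carried few reads. ALDOA, the main aldolase of most tissues, had 4.85, 5.12 and 5.8 CPM untreated, 5.24, 5.39 and 2.1 at 24 h and 6.42 and 5.79 at 48 h in shATF4 cells. ALDOA in scramble cells was at 5.56, 6.85 and 4.82 CPM untreated, 4.02, 5.47 and 4.68 at 24 h and 4.96 and 5.75 at 48 h. The lines overlapped untreated and at 24 h and did not overlap at 48 h, the lowest value was in shATF4 24 h replicate 3, and ALDOA was called in none of the 11 comparisons. Its row held 1322 counts over the 16 libraries, against 670714 for GAPDH. In the GENCODE 29 annotation, whose gene IDs and gene lengths match the table for all 32 genes, 53.5% of its exon bases lie under other genes, 42.3% under the protein-coding gene AC093512.2 on the same strand, which held 1230 counts. Whether reads of ALDOA were lost to this overlap was not tested, so its level is uncertain. ALDOC, the brain-type aldolase, had 3.62, 5.12 and 3.51 CPM untreated, 4.87, 4.22 and 5.65 at 24 h and 5.32 and 7.21 at 48 h in shATF4 cells. ALDOC in scramble cells was at 6.44, 4.44 and 4.42 CPM untreated, 5.29, 5.28 and 5.21 at 24 h and 3.56 and 5.58 at 48 h. It was called only in shATF4 cells at 48 h, 0.62 ± 0.23 (adjusted p = 0.0246), where both libraries were above the untreated ones, and the call was lost without shATF4 untreated replicate 1 or 3 or shATF4 48 h replicate 2 (adjusted p from 0.0822 to 0.296). Without shATF4 48 h replicate 2 its change was 0.37 (adjusted p = 0.296).

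TPI1, which interconverts the triose phosphates, had 948, 945 and 944 CPM untreated, 984, 1082 and 1416 at 24 h and 701 and 731 at 48 h in shATF4 cells. TPI1 in scramble cells was at 1051, 1047 and 1007 CPM untreated, 899, 948 and 913 at 24 h and 617 and 596 at 48 h. It was lower at 48 h than untreated in both lines, -0.40 ± 0.10 (adjusted p = 0.00148) in shATF4 cells and -0.77 ± 0.10 (adjusted p = 1.02e-06) in scramble cells, with no overlap. At 24 h it was called higher in shATF4 cells, 0.30 ± 0.087 (adjusted p = 0.0087), with -0.17 ± 0.087 (adjusted p = 0.121) in scramble cells. Its interaction at 24 h was not called. The highest library was shATF4 24 h replicate 3, the one with the high RN7SL share. Without it the change in shATF4 cells was 0.13 (adjusted p = 0.0492), and the difference from scramble cells at 24 h was 0.17 (adjusted p = 0.0257). The call in shATF4 cells was lost with the groups compared alone in the fit (adjusted p = 0.0647), and that of shATF4 against scramble at 24 h, 0.34 ± 0.087 (adjusted p = 0.00984), was lost without scramble 24 h replicate 1 (adjusted p = 0.0512) and with the groups compared alone in the fit (adjusted p = 0.0808). Its processed copies elsewhere in the genome carried 1.29% as many counts as TPI1 itself, the largest such share of the 15 genes with copies, so a split of reads between them is possible.

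The payoff enzymes from GAPDH to pyruvate kinase fell together at 48 h in both lines, except ENO2. GAPDH averaged 3142 ± 51.4, 2857 ± 200.5 and 1749 ± 130.3 CPM in shATF4 cells untreated, at 24 h and at 48 h, against 3417 ± 32.5, 2531 ± 63.7 and 1651 ± 17.4 CPM in scramble cells. The phosphoglycerate kinase PGK1, which makes the first ATP of the payoff phase, averaged 847 ± 11.8, 817 ± 111 and 509 ± 3.81 CPM in shATF4 cells, against 958 ± 65.6, 776 ± 6.04 and 496 ± 3 CPM in scramble cells. The mutase PGAM1 averaged 449 ± 6.89, 411 ± 23.2 and 306 ± 9.31 CPM in shATF4 cells, against 522 ± 10.2, 389 ± 25 and 294 ± 15 CPM in scramble cells. The 48 h change of these 3 genes was between -0.85 (GAPDH) and -0.56 (PGAM1) in shATF4 cells and between -1.05 and -0.83 in scramble cells, with adjusted p of 9.37e-07 or less. At 24 h all 3 were called lower in scramble cells and none in shATF4 cells. Their interactions at 24 h, 0.30 ± 0.080 (adjusted p = 0.057) for GAPDH, 0.25 ± 0.10 (adjusted p = 0.195) for PGK1 and 0.30 ± 0.088 (adjusted p = 0.0772) for PGAM1, were not called. GAPDH was higher in shATF4 than in scramble cells at 24 h, 0.17 ± 0.057 (adjusted p = 0.0333), a call lost without shATF4 24 h replicate 2 or 3, any single scramble 24 h library or either scramble 48 h library (adjusted p from 0.0571 to 0.166) and in 4 other settings (adjusted p from 0.0528 to 0.128).

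ENO1, the ubiquitous enolase, had 2999.5, 3061 and 3151 CPM untreated, 2826, 3009.6 and 2786 at 24 h and 1721 and 1730.4 at 48 h in shATF4 cells. ENO1 in scramble cells was at 3578, 3515 and 3489 CPM untreated, 2532, 2653 and 2525 at 24 h and 1652 and 1676 at 48 h. The scramble libraries were lower at each later state with no overlap, whereas the 24 h libraries of shATF4 cells overlapped the untreated ones. At 24 h the log2 change was -0.10 ± 0.050 (adjusted p = 0.127) in shATF4 cells and -0.46 ± 0.050 (adjusted p = 2.77e-07) in scramble cells, and the 48 h change was -0.83 ± 0.057 (adjusted p = 1.28e-10) in shATF4 cells and -1.08 ± 0.058 (adjusted p = 1.92e-12) in scramble cells. The interaction at 24 h was 0.36 ± 0.070 (adjusted p = 0.0143) and was lost without shATF4 untreated replicate 1 or 2 or scramble 24 h replicate 1 or 3 (adjusted p from 0.0508 to 0.0608). Between the lines ENO1 was lower in untreated shATF4 cells, -0.20 ± 0.050 (adjusted p = 0.0293), and higher in shATF4 cells at 24 h, 0.16 ± 0.050 (adjusted p = 0.0264). These calls were lost, untreated without any single shATF4 untreated library, scramble untreated replicate 1 or 3, scramble 24 h replicate 1 or 3 or either scramble 48 h library (adjusted p from 0.0502 to 0.139) and under upper-quartile scaling (adjusted p = 0.0558), and at 24 h without shATF4 24 h replicate 2, either shATF4 48 h library, any single scramble 24 h library or either scramble 48 h library (adjusted p from 0.0522 to 0.143) and in 2 other settings (adjusted p from 0.0788 to 0.128).

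PKM, the pyruvate kinase gene whose splice forms include the one common in tumours, had 2746, 2776 and 2789 CPM untreated, 2652, 2867 and 2772 at 24 h and 1709.9 and 1839.5 at 48 h in shATF4 cells. PKM in scramble cells was at 3231, 3206 and 3206 CPM untreated, 2522, 2675 and 2506 at 24 h and 1888 and 1916 at 48 h. At 24 h its log2 change was -0.0033 ± 0.051 (adjusted p = 0.967) in shATF4 cells and -0.32 ± 0.051 (adjusted p = 2.96e-05) in scramble cells, and the interaction was 0.32 ± 0.072 (adjusted p = 0.026), lost without any single shATF4 untreated library, shATF4 24 h replicate 2, scramble untreated replicate 1, scramble 24 h replicate 1 or 3 or either scramble 48 h library (adjusted p from 0.0506 to 0.0994) and with the groups compared alone in the fit (adjusted p = 0.0535). At 48 h it was lower in both lines, -0.64 ± 0.058 (adjusted p = 8.17e-09) in shATF4 cells and -0.76 ± 0.059 (adjusted p = 5.77e-10) in scramble cells. In untreated cells every shATF4 library was below every scramble library, -0.21 ± 0.051 (adjusted p = 0.0216), and this call was lost without any single shATF4 untreated library or scramble untreated replicate 1 (adjusted p from 0.0745 to 0.0925). Gene-level counts do not separate the PKM splice forms.

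ENO2, the neuronal enolase, rose at 48 h where ENO1 fell. It had 42.8, 47.4 and 41.4 CPM untreated, 42.7, 43.5 and 56 at 24 h and 77.1 and 76.4 at 48 h in shATF4 cells. ENO2 in scramble cells was at 52.8, 53.7 and 43.5 CPM untreated, 63.9, 62.6 and 66.3 at 24 h and 73.9 and 72.5 at 48 h. All 48 h libraries were above all untreated ones of their line, with a log2 change of 0.81 ± 0.11 (adjusted p = 1.61e-06) in shATF4 cells and 0.55 ± 0.11 (adjusted p = 0.000146) in scramble cells. At 24 h the change was 0.11 ± 0.10 (adjusted p = 0.379) in shATF4 cells and 0.36 ± 0.10 (adjusted p = 0.00469) in scramble cells, and shATF4 cells were below scramble cells with no overlap, -0.44 ± 0.10 (adjusted p = 0.00343). The interaction of ENO2 at 24 h was not called. Per length, ENO2 made up 1.59% to 1.87% of the enolase pair in untreated shATF4 libraries, 1.75% to 2.42% at 24 h and 5.16% to 5.23% at 48 h. In scramble libraries it made up 1.51% to 1.85%, 2.83% to 3.13% and 5.06% to 5.23%. ENO1 thus remained the main enolase of the pair in every library.

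**Figure D4:**
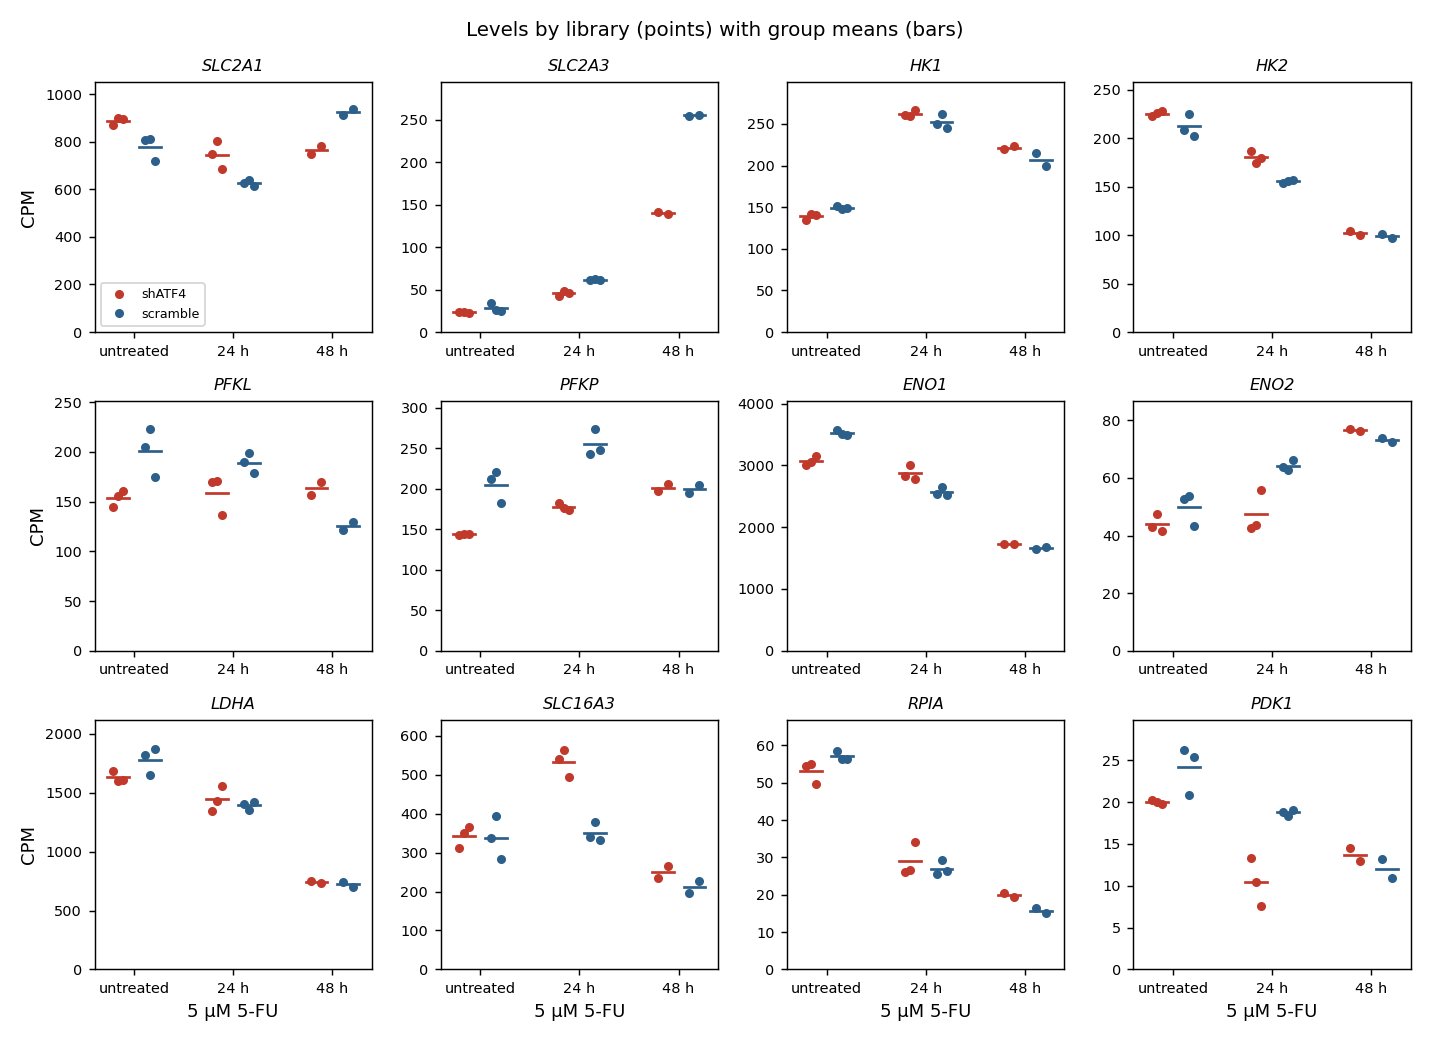
CPM of 12 of the genes by library (points) with group means (bars), untreated and after 24 h and 48 h in 5 µM 5-FU; shATF4 is in red, left of scramble in blue, and each vertical axis starts at 0. SLC2A3 stands at 142 and 139 CPM in shATF4 cells and 255 and 256 CPM in scramble cells at 48 h, while HK2, ENO1, LDHA and RPIA are lowest at 48 h in both lines.

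LDHA, the lactate dehydrogenase subunit that favours lactate formation, had 1682, 1603 and 1604 CPM untreated, 1345, 1433 and 1559 at 24 h and 747 and 733 at 48 h in shATF4 cells. LDHA in scramble cells was at 1819, 1651 and 1869 CPM untreated, 1402, 1357 and 1421 at 24 h and 744 and 703 at 48 h. Its 48 h libraries were below all others in both lines. The level at 48 h was 2.2-fold lower than untreated in shATF4 cells, -1.14 ± 0.072 (adjusted p = 3.77e-11) on the log2 scale, and 2.46-fold lower in scramble cells, -1.30 ± 0.072 (adjusted p = 3.92e-12). At 24 h it was -0.17 ± 0.062 (adjusted p = 0.0276) in shATF4 cells and -0.35 ± 0.062 (adjusted p = 9.71e-05) in scramble cells, and the first of these calls was lost without shATF4 untreated replicate 1 or 2 or shATF4 24 h replicate 1 or 2 (adjusted p from 0.0502 to 0.106) and in 2 other settings (adjusted p from 0.0789 to 0.0797). LDHB, the subunit that favours pyruvate, had 93.4, 75.9 and 76.2 CPM untreated, 76, 77.8 and 93.6 at 24 h and 55.4 and 47.3 at 48 h in shATF4 cells. LDHB in scramble cells was at 68, 79.3 and 106 CPM untreated, 80, 69.7 and 78.4 at 24 h and 49.5 and 43.6 at 48 h. It too was lower at 48 h in both lines, -0.67 ± 0.15 (adjusted p = 0.000526) in shATF4 cells and -0.86 ± 0.15 (adjusted p = 3.79e-05) in scramble cells, and was not called at 24 h. The LDHB share of the pair per length was 8.97% to 10.4%, 10.2% to 11.1% and 11.8% to 13.4% in shATF4 cells untreated, at 24 h and at 48 h. In scramble cells it was 7.22% to 10.6%, 9.66% to 10.6% and 11.4% to 12.2%. Neither subunit was called between the lines at any state.

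The lactate exporter SLC16A3 (MCT4) was the gene whose 24 h response differed most in size between the lines among the called ones. It had 311, 351 and 366 CPM untreated, 540.0, 564 and 493 at 24 h and 235 and 267 at 48 h in shATF4 cells. SLC16A3 in scramble cells was at 337, 394 and 283 CPM untreated, 341, 379 and 332 at 24 h and 196 and 228 at 48 h. At 24 h all shATF4 libraries were above all other libraries of the series, and at 48 h both lines were below their untreated libraries. The 24 h log2 change was 0.64 ± 0.10 (adjusted p = 2.59e-05) in shATF4 cells and 0.053 ± 0.10 (adjusted p = 0.701) in scramble cells, and shATF4 cells stood at 0.60 ± 0.10 (adjusted p = 0.000284) against scramble cells. The interaction at 24 h was 0.58 ± 0.14 (adjusted p = 0.0325) and was lost without shATF4 untreated replicate 1 or 2, shATF4 24 h replicate 2, scramble untreated replicate 1 or 2 or scramble 24 h replicate 1 or 3 (adjusted p from 0.073 to 0.11) and in 2 other settings (adjusted p from 0.0504 to 0.0535). At 48 h the change was -0.45 ± 0.11 (adjusted p = 0.00171) in shATF4 cells and -0.67 ± 0.11 (adjusted p = 2.92e-05) in scramble cells. SLC16A1 (MCT1), which carries lactate both ways, had 289, 275 and 263 CPM untreated, 221, 216 and 211 at 24 h and 270.3 and 261 at 48 h in shATF4 cells. SLC16A1 in scramble cells was at 247, 249.5 and 286 CPM untreated, 219, 208 and 214 at 24 h and 204 and 206 at 48 h. It was lower at 24 h in both lines, -0.35 ± 0.065 (adjusted p = 0.000176) in shATF4 cells and -0.29 ± 0.065 (adjusted p = 0.00109) in scramble cells, and its 48 h change was -0.054 ± 0.072 (adjusted p = 0.546) in shATF4 cells and -0.35 ± 0.073 (adjusted p = 0.000338) in scramble cells. The interaction of SLC16A1 at 48 h was not called. At 48 h shATF4 cells were above scramble cells, 0.37 ± 0.079 (adjusted p = 0.00438), a call lost without shATF4 48 h replicate 1 or either scramble 48 h library (adjusted p from 0.0503 to 0.0576). Per length, SLC16A3 was 58% to 60.7% of the pair at 24 h in shATF4 cells and 47.8% to 51.9% in scramble cells.

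The pyruvate dehydrogenase kinases changed in opposite directions at 24 h. PDK1, a hypoxia-responsive form, had 20.3, 20 and 19.8 CPM untreated, 13.3, 10.5 and 7.63 at 24 h and 14.5 and 12.9 at 48 h in shATF4 cells. PDK1 in scramble cells was at 26.2, 20.9 and 25.4 CPM untreated, 18.9, 18.4 and 19.1 at 24 h and 13.2 and 10.9 at 48 h. At 24 h every shATF4 library was below every scramble library, -0.84 ± 0.14 (adjusted p = 0.000408), and the change against untreated was -0.94 ± 0.15 (adjusted p = 2.48e-05) in shATF4 cells and -0.36 ± 0.14 (adjusted p = 0.0355) in scramble cells. The scramble call was lost without scramble untreated replicate 1 or 3 or any single scramble 24 h library (adjusted p from 0.0766 to 0.134) and under upper-quartile scaling (adjusted p = 0.0943). At 48 h PDK1 was lower than untreated in both lines, -0.54 ± 0.16 (adjusted p = 0.0056) in shATF4 cells and -0.9995 ± 0.16 (adjusted p = 1.61e-05) in scramble cells, with the first call lost without shATF4 48 h replicate 2 (adjusted p = 0.0617). The interaction at 24 h, -0.57 ± 0.20 (adjusted p = 0.123), was not called. PDK3, another isoform, had 23.2, 23.2 and 22 CPM untreated, 34.6, 31.2 and 28.8 at 24 h and 26.1 and 23.6 at 48 h in shATF4 cells. PDK3 in scramble cells was at 24.1, 24 and 26.2 CPM untreated, 32.2, 33.2 and 35.1 at 24 h and 20.1 and 18.3 at 48 h. It was higher at 24 h in both lines, 0.47 ± 0.090 (adjusted p = 0.000259) in shATF4 cells and 0.44 ± 0.089 (adjusted p = 0.000434) in scramble cells. At 48 h its change was 0.12 ± 0.10 (adjusted p = 0.307) in shATF4 cells and -0.37 ± 0.10 (adjusted p = 0.00413) in scramble cells, and shATF4 cells were above scramble cells, 0.37 ± 0.11 (adjusted p = 0.0367). The interaction of PDK3 at 48 h was not called. The scramble call at 48 h was lost without scramble 48 h replicate 2 (adjusted p = 0.0625) and under upper-quartile scaling (adjusted p = 0.0651), and the difference between the lines without either shATF4 48 h library, scramble 24 h replicate 1 or either scramble 48 h library (adjusted p from 0.0502 to 0.285) and with no filter on low counts (adjusted p = 0.094).

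All 6 pentose phosphate genes were lower at 48 h than untreated in both lines, and 4 of them, PGLS, PGD, RPIA and TKT, also at 24 h in both. In the oxidative branch, PGLS hydrolyses the lactone and PGD makes NADPH and ribulose 5-phosphate. PGD had 337, 337 and 335 CPM untreated, 233, 249.9 and 300.5 at 24 h and 248 and 259 at 48 h in shATF4 cells. PGD in scramble cells was at 332, 323 and 325 CPM untreated, 214, 215 and 213 at 24 h and 195 and 194 at 48 h. Its 5-FU libraries were below all untreated ones, with a 48 h log2 change of -0.41 ± 0.081 (adjusted p = 0.000196) in shATF4 cells and -0.75 ± 0.082 (adjusted p = 1.05e-07) in scramble cells. PGD was higher in shATF4 than in scramble cells at both times without overlap, 0.29 ± 0.072 (adjusted p = 0.00818) after 24 h of 5-FU and 0.38 ± 0.088 (adjusted p = 0.00766) after 48 h. Without shATF4 24 h replicate 3 the 24 h difference was 0.17 (adjusted p = 0.0269). These calls were lost, at 24 h with the groups compared alone in the fit (adjusted p = 0.0654), and at 48 h without shATF4 48 h replicate 2 or either scramble 48 h library (adjusted p from 0.0576 to 0.0642). PGLS had 58.3, 59.9 and 61.9 CPM untreated, 48.9, 46 and 32.9 at 24 h and 40.3 and 45.6 at 48 h in shATF4 cells. PGLS in scramble cells was at 56.8, 55.8 and 55.3 CPM untreated, 41.7, 41.4 and 39.5 at 24 h and 34 and 35.8 at 48 h. Its 48 h change was -0.48 ± 0.12 (adjusted p = 0.00127) in shATF4 cells and -0.68 ± 0.12 (adjusted p = 4.28e-05) in scramble cells, and its lowest shATF4 value was in 24 h replicate 3.

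In the non-oxidative branch RPIA, which makes ribose 5-phosphate, fell most of the 32 genes at 48 h. It had 54.4, 55.1 and 49.7 CPM untreated, 26.1, 26.7 and 34.2 at 24 h and 20.6 and 19.3 at 48 h in shATF4 cells. RPIA in scramble cells was at 58.6, 56.5 and 56.3 CPM untreated, 25.5, 29.3 and 26.3 at 24 h and 16.5 and 15 at 48 h. The groups did not overlap between states within either line. At 24 h the log2 change was -0.87 ± 0.10 (adjusted p = 3.48e-07) in shATF4 cells and -1.08 ± 0.10 (adjusted p = 1.71e-08) in scramble cells. At 48 h RPIA was 2.66-fold lower than untreated in shATF4 cells, -1.41 ± 0.11 (adjusted p = 1.22e-09), and 3.62-fold lower in scramble cells, -1.85 ± 0.12 (adjusted p = 2.43e-11). The transketolase TKT averaged 457 ± 11.5, 368 ± 11.8 and 263 ± 12.7 CPM in shATF4 cells untreated, at 24 h and at 48 h, against 497 ± 17.3, 374 ± 13.3 and 234 ± 4.77 CPM in scramble cells. Its 48 h change was -0.80 ± 0.066 (adjusted p = 2.04e-09) in shATF4 cells and -1.09 ± 0.067 (adjusted p = 1.79e-11) in scramble cells. The transaldolase TALDO1 changed less, -0.44 ± 0.063 (adjusted p = 3.77e-06) in shATF4 cells and -0.64 ± 0.063 (adjusted p = 2.41e-08) in scramble cells, and was called at 24 h in scramble cells only, -0.23 ± 0.055 (adjusted p = 0.0017). The epimerase RPE was called at 48 h in shATF4 cells, -0.30 ± 0.10 (adjusted p = 0.0107), and in scramble cells, -0.28 ± 0.10 (adjusted p = 0.0169), and 23.8% of its exon bases lie under KANSL1L on the opposite strand. The RPE calls were lost, in shATF4 cells without shATF4 untreated replicate 1 or shATF4 48 h replicate 2 (adjusted p from 0.0579 to 0.138) and under upper-quartile scaling (adjusted p = 0.115), and in scramble cells without scramble untreated replicate 3 or scramble 48 h replicate 2 (adjusted p from 0.0806 to 0.114) and under upper-quartile scaling (adjusted p = 0.237). None of RPIA, TKT, TALDO1 and RPE was called between the lines at any state, and no pentose phosphate gene had a called interaction.

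Between 24 h and 48 h in 5-FU, 22 of the 32 genes were called in shATF4 cells, 3 higher and 19 lower, where 48.2% of all genes were called, 23.7% higher and 24.5% lower. In scramble cells 25 were called, 2 higher and 23 lower, where 38.3% of all genes were called, 18.8% higher and 19.5% lower. The genes called lower were again a larger share of the 32 than of all genes. SLC2A3 rose in both lines between these times, 1.62 ± 0.094 (adjusted p = 6.74e-11) in shATF4 cells and 2.05 ± 0.093 (adjusted p = 2.1e-12) in scramble cells. The others that rose were ENO2 and SLC16A1 in shATF4 cells, 0.69 ± 0.11 (adjusted p = 1.9e-05) and 0.30 ± 0.072 (adjusted p = 0.00195), and SLC2A1 in scramble cells, 0.56 ± 0.070 (adjusted p = 2.68e-06). The largest falls in shATF4 cells were of SLC16A3, LDHA and HK2, -1.09 ± 0.11 (adjusted p = 1.87e-07), -0.97 ± 0.071 (adjusted p = 1.68e-09) and -0.82 ± 0.069 (adjusted p = 8.54e-09). In scramble cells they were of LDHA, PDK3 and GPI, -0.95 ± 0.071 (adjusted p = 3.23e-09), -0.81 ± 0.10 (adjusted p = 3.14e-06) and -0.80 ± 0.077 (adjusted p = 9.58e-08). PGD and PGLS, lower than untreated by 24 h, were not called between 24 h and 48 h in either line. PFKM in shATF4 cells, -0.33 ± 0.10 (adjusted p = 0.0123), was -0.17 (adjusted p = 0.0707) without shATF4 24 h replicate 3.

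Of a list of 73 further genes of these pathways (other transporters and isoenzymes, gluconeogenesis, pyruvate entry and regulators), 58 passed the filter on low counts. At 48 h against untreated 37 were called in shATF4 cells, 17 higher and 20 lower, and 39 in scramble cells, 16 higher and 23 lower, where 58.3% and 60.7% of all genes were called in these lines. At 24 h 25 were called in shATF4 cells, 13 higher and 12 lower, and 27 in scramble cells, 15 higher and 12 lower, where 44.4% and 44% of all genes were called. The shares called were near those of all genes at both times. Their median log2 change at 48 h was -0.032 in shATF4 cells and -0.18 in scramble cells, closer to 0 than the -0.41 and -0.68 of the 32 genes. Between shATF4 and scramble 7 of the 58 were called untreated, 23 at 24 h and 7 at 48 h, where 2.92%, 20.4% and 9.45% of all genes were called. The share called between the lines was thus above that of all genes at each state, as it was for the 32 genes. DLAT, the acetyltransferase subunit of pyruvate dehydrogenase, averaged 95.3 ± 2.21 CPM at 48 h in shATF4 cells and 99.2 ± 2.06 CPM in scramble cells, against 207 ± 10.7 and 218 ± 13.1 CPM untreated in the same lines, a change of -1.12 ± 0.073 (adjusted p = 6.53e-11) and -1.14 ± 0.073 (adjusted p = 3.8e-11). SHPK, which makes sedoheptulose 7-phosphate, fell as well, -1.01 ± 0.14 (adjusted p = 2.94e-06) in shATF4 cells and -1.43 ± 0.14 (adjusted p = 2.99e-08) in scramble cells. SLC2A6, of the same transporter family as SLC2A1, rose in both lines at both times, with 1.07 ± 0.12 (adjusted p = 1.21e-07) in shATF4 cells and 1.25 ± 0.12 (adjusted p = 1.36e-08) in scramble cells at 48 h. HKDC1, a further hexokinase-like enzyme, rose in both lines at 48 h, 1.34 ± 0.090 (adjusted p = 1.03e-10) in shATF4 cells and 0.88 ± 0.089 (adjusted p = 3.37e-08) in scramble cells, with an interaction that was not called, 0.46 ± 0.13 (adjusted p = 0.0596).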

How the data were processed

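Per the labels' protocols, poly(A)-selected RNA of SW620 cells was sequenced in 16 libraries. Per the submitters' processing notes the authors used featureCounts 1.5.0-p3 and the GRCh38 (hg38) build. The sources used here do not give the aligner, annotation release or strand setting, so genes that overlap others may share reads. The deposited counts were whole numbers and not normalized. The deposited FPKM values, per the file headers, were used only for levels between genes and for isoenzyme shares. 

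Low counts among the 58735 genes were removed by filterByExpr (edgeR 4.0.16, R 4.3.3), leaving 17309 genes with 99.9% of counts. Library sizes were scaled by TMM, and CPM are on that scale. One quasi-likelihood model held all 16 libraries in 6 groups, so that groups of 2 shared the spread of the others. It had 10 residual degrees of freedom and a common biological coefficient of variation of 0.0847. There were 11 comparisons. P-values were adjusted by Benjamini-Hochberg over all genes tested, with calls at 0.05. An SE was derived from the log2 change and its F statistic. Exact permutation of 3 against 3 libraries cannot go below p = 0.1 and was not used. The test was run on simulated data with the same spread for every gene and with changes larger than many reported here. That run does not show how well small changes are found. Library totals of 14571611 to 17824188 gave the 32 genes 36 to 55431 counts per library.

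The alternatives were median-of-ratios and upper-quartile scaling, DESeq2 1.42.0, no filter on low counts, only the groups compared in the fit, a replicate block, leaving out each library in turn, and leaving out both libraries that stood apart. The check of replicate numbers is given with the block. Genes and lists were chosen with earlier results of these data known. Values in every library are given for genes among the 3 largest called rises or falls of any comparison, for called interactions and for isoenzyme pairs; the further genes named had a called log2 change of at least 1. Promoter letters come from RefSeq on GRCh38.p14, and overlaps from GENCODE 29, which holds all gene IDs of the table.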

Additional observations from a re-analysis of the deposited data

Results flagged for a closer look

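The response to 5-FU differed between shATF4 and scramble cells, by the interaction term of edgeR's quasi-likelihood test, for 8 values. At 24 h ENO1 (0.362, adjusted p = 0.0143) and PKM (0.321, adjusted p = 0.026) fell in scramble cells and were not called in shATF4 cells, and SLC16A3 (0.583, adjusted p = 0.0325) rose in shATF4 cells and was not called in scramble cells. At 48 h PFKL (0.772, adjusted p = 0.00499) fell in scramble cells only, PFKP (0.529, adjusted p = 0.0117) rose in shATF4 cells only, and PGM1 (0.414, adjusted p = 0.0413) had opposite signs in the lines. SLC2A1 (-0.464, adjusted p = 0.0146) was lower than untreated in shATF4 cells at 48 h and higher in scramble cells, and SLC2A3 (-0.583, adjusted p = 0.0263) rose less in shATF4 cells. The groups had 2 or 3 libraries, too few to look for single libraries far from the others by the rule for groups of 4 to 10.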

How the results depend on the processing

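No value changed sign past the threshold under any alternative. Without the 2 libraries picked as standing apart, 9 of the 32 genes were called between the lines untreated (4 in the reported fit) and 12 at 48 h (7). Without them 7 interactions were called at 24 h (3) and 15 at 48 h (5). Calls over all genes rose too, to 891 untreated (506), 3021 at 48 h (1636), and 647 (369) and 1204 (475) interactions at 24 h and 48 h. With only the groups compared in the fit 5 were called between the lines at 24 h (13) and 1 interaction at 24 h (3), where fewer libraries estimate the spread. The 24 h interactions numbered 6 with DESeq2 and 5 with no filter on low counts. Leaving out each library in turn gave 1 to 8 calls between the lines untreated, 7 to 14 at 24 h and 1 to 10 at 48 h, and 0 to 8 interactions at 24 h and 1 to 11 at 48 h. For 5-FU it gave 17 to 21 at 24 h and 22 to 26 at 48 h in shATF4 cells, and 21 to 24 and 23 to 29 in scramble cells. For 48 h against 24 h it gave 18 to 25 in shATF4 cells and 22 to 27 in scramble cells. The cause of these moves was not tested. Same-numbered libraries deviated together little (36 pairs, r from -0.0766 to 0.116, 1 above 0.1), and the numbers were not taken to pair them. The 2 libraries of a 48 h group deviate by equal and opposite amounts. The r between the 48 h groups, 0.02, is therefore the same for both replicate numbers. With the replicate block 5 interactions of the 32 genes were called at 24 h (3), and their other 10 counts stayed within 1.5 times. Over all genes the block raised the calls in all 11 comparisons, so whether same-numbered libraries belong together was not settled. The calls over all genes were 644 (369) and 669 (475) interactions at 24 h and 48 h, and 591 (506) between the lines untreated. Over all genes, higher calls made up 61.2% of calls at 48 h in shATF4 cells under upper-quartile scaling, against 50.7% with TMM, and 60.1% at 24 h and 61.4% at 48 h in scramble cells, against 49.5% and 50.5%. For 48 h against 24 h they made up 58.6% in shATF4 cells and 60.2% in scramble cells, against 49.1% in both, and 30.7% of the 24 h interactions, against 44.4%. Counting error limits ALDOA, ALDOC and PDK1 most, and GAPDH, ENO1 and PKM least.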

Other observations

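The alpha-arrestins TXNIP and ARRDC4, which are known to restrain glucose uptake and to respond to glucose metabolites, rose at 48 h in both lines. TXNIP averaged 194 ± 5.97 CPM in untreated shATF4 cells, 319.8 ± 22.5 at 24 h and 402 ± 13.3 at 48 h, against 146 ± 14.1, 195 ± 7.97 and 457 ± 1.66 CPM in scramble cells (SD, n = 3, 3 and 2 in each line). Its log2 change ± SE at 48 h was 1.05 ± 0.078 (adjusted p = 4.59e-10) in shATF4 cells and 1.65 ± 0.079 (adjusted p = 3.74e-13) in scramble cells, and the interaction was -0.60 ± 0.11 (adjusted p = 0.00495), from edgeR's quasi-likelihood test. ARRDC4 changed by 1.16 ± 0.12 (adjusted p = 5.18e-08) in shATF4 cells and 1.49 ± 0.12 (adjusted p = 1.84e-09) in scramble cells, with an interaction of -0.33 ± 0.17 (adjusted p = 0.382) that was not called.

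EPAS1, the hypoxia-inducible factor HIF-2α, was near the floor in untreated cells and rose in both lines. It averaged 0.56 ± 0.309 CPM untreated, 1.94 ± 0.262 at 24 h and 6.51 ± 1.14 at 48 h in shATF4 cells, against 0.154 ± 0.0918, 3.07 ± 0.223 and 7.73 ± 0.444 CPM in scramble cells. Both changes at 48 h were called, with adjusted p of 3.1e-09 in shATF4 cells and 5.1e-11 in scramble cells by edgeR's quasi-likelihood test. The log2 rise of EPAS1 at 24 h was 4.22 in scramble cells and 1.78 in shATF4 cells, an interaction of -2.44. The size of this difference is uncertain because the untreated levels were near the floor. PCK1, which draws carbon back toward glucose, rose at 24 h, 1.33 ± 0.26 (adjusted p = 0.000259) in shATF4 cells and 1.37 ± 0.21 (adjusted p = 2.65e-05) in scramble cells, and was lower at 48 h than at 24 h in both, -1.34 ± 0.28 (adjusted p = 5e-04) and -1.84 ± 0.25 (adjusted p = 9.01e-06). All genes named here were taken for a called log2 change of at least 1 and stand for no wider list.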
